A study of Mus musculus with 6 samples.

Results

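The mouse array used in this study carries 55681 distinct probes that are not controls, and 16194 of them (29.1%) are known only by a stretch of a chromosome. They were chosen as every probe whose systematic name in the scanner files starts with a chromosome, a rule that uses no measured value. The probes cover 3543 regions on 20 chromosomes. Names end in F for 8171 probes, in R for 8010 and in neither for 13, and the letters are read here as the 2 orientations of a region, since the files do not say which genomic strand each stands for. Of the regions, 1251 were probed as F only, 1222 as R only and 1067 in both orientations, and 3 regions carry no letter. Each of the 4610 combinations of a region and an orientation, called a region orientation below, had 1 to 10 probes with a median of 3.

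Probes of this kind are array content for long intergenic noncoding RNAs, or lincRNAs. These are transcripts with no evident protein product made from stretches between protein-coding genes, many of which were first found as chromatin domains carrying the marks of an active promoter and of a transcribed body. Such marks do not tell the strand, so arrays often hold probes for either strand of a domain. lincRNAs are on the whole less abundant and more restricted to a tissue than messenger RNAs, and several act in the nucleus on chromatin.

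Nothing in the scanner files calls a region a lincRNA or gives it a gene name. Region lengths ran from 62 to 7128487 bp with a median of 7304 bp and quartiles of 786.5 and 21807 bp, so the longest is far beyond the length of a typical transcript. In all, 984 regions were under 1000 bp, 135 were longer than 100000 bp and 1 was longer than 1000000 bp. The members are therefore called region probes here. Coordinates are those of the scanner files, whose headers name the mouse build mm9. Whether a region lies in a gene, an exon or an intron was not analysed here. The 145 regions (571 probes) on chromosome 18 were counted and are not named.

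The samples were RNA of GFP+ and tdTomato+ cells sorted by flow cytometry from kidneys of salt-stressed C57BL/6 mice at postnatal day 1. The labels call them UB cells, for the ureteric bud, the epithelial outgrowth that forms the collecting ducts. Mice of the WT group were Hoxb7cre+; R26RtdTomato; Bdkrb2+/+ and mice of the MUT group were Hoxb7cre+; R26RtdTomato; Bdkrb2f/f, so Cre, the reporter and the salt stress were shared and only the floxed Bdkrb2 alleles differed. Bdkrb2 encodes the bradykinin B2 receptor, and the Hoxb7 promoter drives Cre in the ureteric bud and what grows from it, so the deletion is confined to cells in which Cre acted. Each group had 3 biological pools of a size the labels do not state. Cy5 labelled the pool under study and Cy3 labelled WT pool 1 RNA throughout, with no dye swap, so the array of WT pool 1 set that RNA against itself. Log2 ratios below are of a pool over WT pool 1, and a change is the MUT mean minus the WT mean.

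The arrays differed in ways that bear on all values below. Row 1 of the slide held the 3 MUT pools together with WT pool 1, while row 2 held WT pools 2 and 3. Bdkrb2 was detected on none of the arrays, so the deletion could not be checked from its probe. Defining markers of the sorted cells were measured on every array, but 6 of 9 ureteric and collecting duct markers, 6 of 6 principal cell markers and 5 of 5 intercalated cell markers were called lower in MUT, with median log2 changes of -1.29, -2.08 and -2.51. Markers of the stroma, the connective cells around the ducts, were called higher for 6 of 6 genes, with a median change of 2.65, and 4 of 5 nephron progenitor markers were called higher, with a median of 2.29. The summed Cy5 signal of the stroma list was 2810 to 10800 in the WT pools and 54800 to 63800 in the MUT pools, and that of the nephron progenitor list was 8320 to 10900 against 29400 to 62200. For principal cells the sum was 28800 to 30500 against 12800 to 14200. The ureteric and collecting duct list summed to 48100 to 64300 in WT and 30600 to 40400 in MUT. For the thick limb and distal tubule list it was 41700 to 75200 and 15700 to 19100, so these 2 lists overlapped in WT. The proximal tubule list summed to 17400 to 35800 in WT and 28400 to 34100 in MUT. Of the leukocyte list 3 of 4 markers were called higher and 1 lower, of the thick limb list 4 of 4 were lower, of the endothelial list 4 of 4 were lower, of the proximal tubule list 1 of 4 was lower, of the podocyte list 0 of 4 changed, and both measured erythroid markers were lower. In such pooled cells a smaller share of a cell type and less RNA per cell cannot be told apart, and the part of these cell types in the region probes' values was not tested.

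Fewer region probes than other probes were detected, and more of them were detected in MUT than in WT. Detection here means that the Cy5 signal was well above background by the scanner software's flag. In the WT pools 28.7%, 25.6% and 26.4% of the region probes were detected, and in the MUT pools 33.8%, 35.9% and 35.3%. All MUT pools lay above all WT pools. The means were 26.9% ± 1.60 (SD, n = 3) and 35.0% ± 1.09 (SD, n = 3), a difference of 8.07 percentage points. The exact two-sided permutation test gave p = 0.1, the smallest value that 3 against 3 pools allow. Within row 1 of the slide the single WT pool stood at 28.7%, below each of the 3 MUT pools.

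Detection was higher for the R probes than for the F probes on every array. F probes were detected at 26.4%, 23.6% and 24.4% in WT and at 31.4%, 33.2% and 32.7% in MUT. R probes were detected at 30.9%, 27.6% and 28.5% in WT and at 36.2%, 38.6% and 37.9% in MUT. The rise from WT to MUT was 7.62 points for F and 8.54 points for R, and neither orientation had overlapping pools. All other probes of the array went from 59.1% ± 1.47 to 64.1% ± 0.447 (SD, n = 3 each), a rise of 4.94 points.

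The gap between region probes and other probes was narrower in MUT. The share of region probes detected minus the share of other probes detected was -32.1, -32.3 and -32.3 points in the WT pools and -30.2, -28.7 and -28.5 points in the MUT pools. The groups did not overlap, and the exact permutation p of this difference was again 0.1. The Cy3 channel, which held WT pool 1 RNA on all arrays, is a measure of how far detection moved with the array itself. In Cy3 the region probes were detected at 26.6%, 26.1% and 31.6% on the WT arrays and at 34.1%, 30.5% and 27.7% on the MUT arrays. These groups overlapped (exact permutation p = 0.4), and their means differed by 2.65 points, against 8.07 points in Cy5. Over the 6 arrays the Cy3 share of this single RNA still ranged from 26.1% to 34.1%. Such a range over single arrays is a measure unlike a difference of group means.

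**Figure D1:**
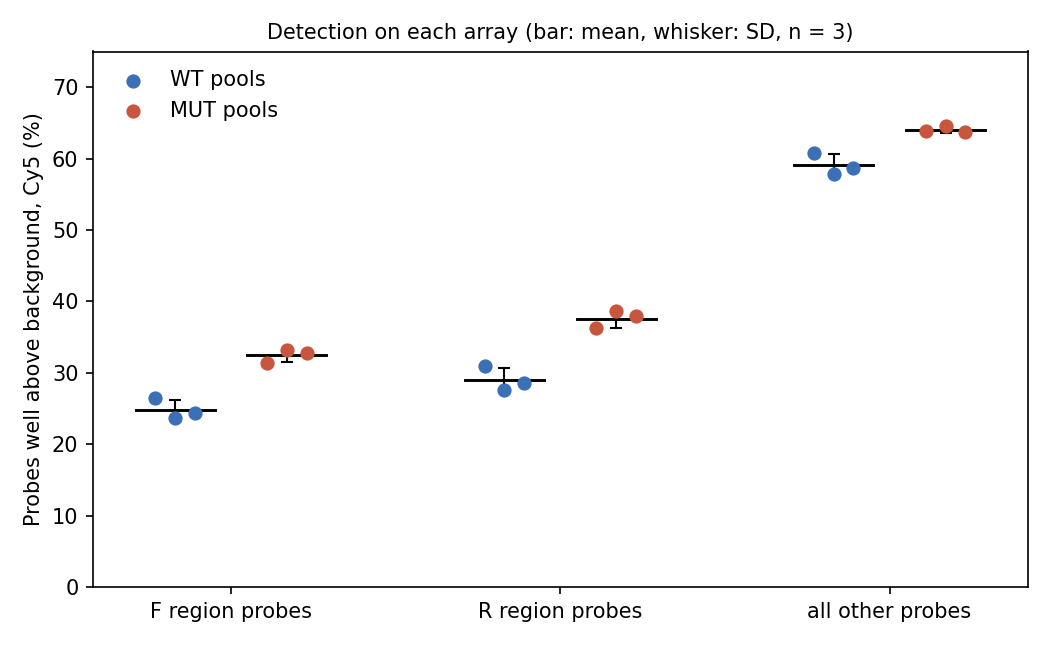
Share of probes detected in the Cy5 channel of each array (y axis, percent), for F region probes, R region probes and all other probes (x axis), with WT pools in blue and MUT pools in red. Horizontal bars are means and whiskers are SD (n = 3 pools); F probes lie between 23.6% and 26.4% in WT and between 31.4% and 33.2% in MUT.

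Most region probes were silent in both groups or present in both. On all 6 arrays 3470 region probes (21.4%) were detected, and 9006 (55.6%) were detected on none. A further 389 (2.40%) were detected on all MUT and no WT arrays, where the share over all probes of the array was 2.06%. The opposite pattern, all WT and no MUT arrays, held for 16 region probes (0.0988%), against 0.136% over all probes. Both shares are near those of the whole array. Of the 389 probes 171 were F and 218 were R, and the 16 were 8 of each.

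Where both orientations of a region were probed, they were often detected alone. Among the 1067 such regions, counting an orientation as present when at least 1 of its probes was detected on all 3 arrays of a group, WT cells had F only in 197, R only in 267, both in 261 and neither in 342. MUT cells had F only in 202, R only in 269, both in 341 and neither in 255. The pattern was the same in both groups for 842 regions. In 190 regions an orientation was present in MUT that was absent in WT and none was lost, and in 32 the reverse was true. Absent here includes probes detected on fewer than 3 arrays of a group. By single probes, 6.48% of region probes and 5.58% of all probes were detected on all MUT but not all WT arrays. The reverse held for 1.46% and 1.27%, so more gains than losses were seen over the whole array too. A switch from 1 orientation alone to the other alone was seen in 3 regions. Most of the gains were regions with nothing present in WT, 101 in all, of which 51 gained F only and 40 gained R only, while 45 regions with F only and 44 with R only had both in MUT.

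Changes between the groups were tested on probes detected on all 3 arrays of at least 1 group, by limma with Benjamini-Hochberg adjustment over all 28990 such probes of the array, and a probe was called at an adjusted p under 0.05. Of the region probes 4756 qualified, 3470 through both groups, 1049 through MUT alone and 237 through WT alone. Among these 732 were called (15.4%), where 23.6% of all tested probes were called. The called region probes were 397 higher in MUT (8.35% of those tested, with 11.0% over all probes) and 335 lower (7.04%, with 12.6% over all probes). Pools of the groups did not overlap for 33.7% of the tested region probes, and for 47.0% of all tested probes. By each of these counts a region probe was called less often than a probe of the whole array. F and R probes were called at like shares, 337 of 2212 and 395 of 2539.

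The qualifying rule lets in probes through the group where they are high, so the same counts were made for the 3470 region probes detected on all 6 arrays. Of these 523 (15.1%) were called, 259 higher and 264 lower, where 23.8% of all such probes were called. The median log2 change was 0.04 over the tested region probes and 0.01 over all tested probes, and it was -0.02 over the region probes detected on all 6 arrays. Called probes moved by similar amounts in either direction, with medians of 1.04 for those higher and -1.07 for those lower.

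The region probes were dimmer than the rest of the array, which bears on how small a change could be seen. The median Cy5 signal of tested region probes was 66.9 scanner units and that of the other tested probes 468, with median SE of the log2 change of 0.26 and 0.17. The share called was lower for region probes than for other probes in each of 5 ranges of signal. Under 50 units 13.6% of 1914 region probes and 20% of 3508 other probes were called. At 500 units and over, 18.1% of 620 region probes and 27.0% of 11812 other probes were called. The array of WT pool 1, which set 1 RNA against itself, had an SD of the log2 ratio of 0.40 over region probes, against 0.51 and 0.48 for WT pools 2 and 3 and 1.05, 0.74 and 0.73 for the MUT pools.

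**Figure D2:**
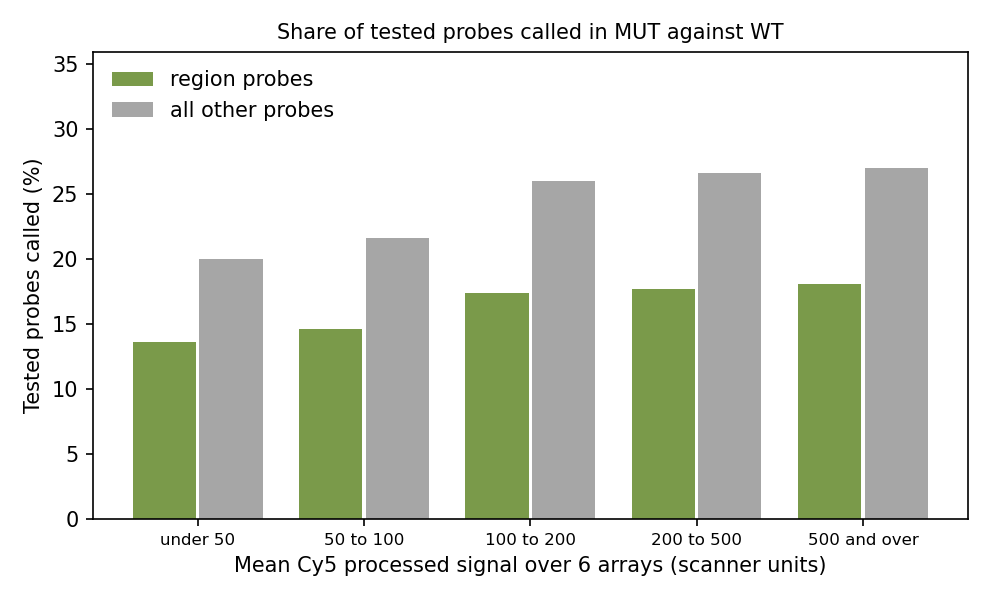
Share of tested probes called in MUT against WT (y axis, percent) by mean Cy5 processed signal over the 6 arrays (x axis, scanner units), for region probes in green and all other probes in grey. The green bar is the lower of the pair in each range, from 13.6% against 20% under 50 units to 18.1% against 27.0% at 500 units and over.

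The number of calls depended on single arrays and on the slide. Without WT pool 1 384 region probes were called (8.07% of those tested, with 13.5% over all probes), and without WT pool 2 521 (11%, with 17.7%). Without WT pool 3 263 were called (5.53%, with 9.45%), and without MUT pool 1 907 (19.1%, with 26.5%). Without MUT pool 2 377 were called (7.93%, with 12.6%), and without MUT pool 3 428 (9%, with 14.2%). The shares of region probes and of all probes thus moved in the same direction. In a fit with slide row as a block, where WT pool 1 alone shares a row with MUT, 49 region probes were called. These were 1.03% of those tested, with 1.99% over all probes. Centring the arrays on the spike-in controls moved the median change of all probes to 0.96, and 2102 region probes were then called, of which 97.7% were higher in MUT. The 2102 were 44.2% of the tested region probes. Of all tested probes 41.2% were called, and 96.9% of those were higher. Under this setting a region probe was thus called more often than a probe of the whole array.

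Called probes were spread over all 20 chromosomes. Among chromosomes with over 200 tested probes, the share called ran from 8.41% of 309 on chromosome 17 to 20% of 335 on chromosome 1. On chromosome 12 it was 5.00% of 200 and on chromosome 10 it was 21.9% of 178. Chromosome 13 had 39 probes called higher and 4 lower. By length of region, 19.6% of 545 tested probes were called in regions of up to 785 bp, and 13.6%, 14.6% and 15.9% in the 3 longer classes of equal size.

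Probes of a region orientation tended to move together. Probes of a region share a source and are not replicates, so they were averaged per array and fitted with all other probes. Of 2329 region orientations with a tested probe 361 were called (15.5%), 201 higher and 160 lower, where 25.4% of all features of that fit were called. Pools did not overlap for 32.0% of them, against 48.1% over all features. Among 697 orientations with at least 3 tested probes, all probes changed in the same direction in 430. The median SD of change among the probes of an orientation was 0.24, against 0.76 over all tested region probes. At least 2 probes were called in the same direction in 148 orientations, and in 5 orientations probes were called in opposite directions. Every probe was called higher in 23 orientations with at least 3 tested probes, and every probe lower in 25. Without WT pool 1 203 orientations were called, without WT pool 3 141, without MUT pool 2 208, without MUT pool 3 228, and with slide row as a block 40. By single probes, the share called over all tested probes fell too under these settings. It went from 23.6% to 13.5%, 9.45%, 12.6%, 14.2% and 1.99%, in the same order.

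The region orientations described next are those for which a fold could be given, that is, called, with non-overlapping pools, at least 2 tested probes and every tested probe detected on at least 1 array of each group. The last condition left out 9 orientations with larger changes than the tenth rise (4 F and 5 R, up to 2.58 at chr14:77077374-77086910 F) and 8 with larger changes than the tenth fall (4 F and 4 R, down to -3.26 at chr1:23340743-23341144 F). By this rule the 10 largest rises were on chromosomes 10, 8, 2, 5, 1 and 13, and the changes given depend on the background correction. After normexp and loess, whose offset of 50 units shrinks the ratios of dim probes, all 20 named rises and falls were still called, but the rises were 0.88 to 1.92 in place of 1.94 to 2.82 and the falls -2.27 to -0.64 in place of -2.87 to -1.52. The first rise is chr10:69679644-69682458 F. Its log2 ratios were 0.15, -0.75 and -1.61 in the WT pools and 2.29, 2.14 and 1.83 in the MUT pools. The groups were far apart, although the WT pools spread more widely than the MUT pools. It rose by 2.82 ± 0.44 (SE), or 7.07-fold, with an adjusted p of 0.00823 in limma, and both tested probes were called.

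This stretch lies inside the longer chr10:69669025-69686275 F, the second largest rise. The longer region stood at 0.19, -0.55 and -1.56 in WT and at 2.11, 1.87 and 1.69 in MUT. All 5 of its probes were detected on every array and called, with single probes between 2.27 and 2.75. As a region it rose by 2.53 ± 0.43 (SE), or 5.78-fold (adjusted p = 0.0108). The 2 entries are overlapping readings of 1 locus.

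Next came chr8:83210957-83219451 F, at 0.38, -0.33 and -1.06 in WT and 1.65, 2.13 and 2.22 in MUT. WT pool 3 was the lowest, as it was for the regions on chromosome 10. The rise was 2.34 ± 0.38 (SE), or 5.05-fold (adjusted p = 0.00923; 1.06 after normexp and loess), and 3 of 3 probes were called. Single probes rose by 3.13, 2.08 and 1.79, and the first of them was detected on 1 WT array only. Chromosome 2 held 2 separate entries. At chr2:115900355-115900904 F the WT pools were at -0.18, -0.18 and -1.47 and the MUT pools at 1.68, 1.59 and 1.54, a rise of 2.21 ± 0.36 (adjusted p = 0.00951). At chr2:33500594-33501874 F they were at 0.00, -1.01 and -1.43 and at 1.64, 1.55 and 0.97, a rise of 2.20 ± 0.40 (adjusted p = 0.0126). The MUT pools lay close together in the former and more widely in the latter, and all 3 probes of each were called. Single probes rose by 3.18, 1.62 and 1.84 in the former and by 1.995, 2.12 and 2.49 in the latter. The first probe of each was detected on 2 WT arrays and the others on all 3.

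These rises shared an order of the WT pools, with pool 1 at or near the top and pool 3 at the bottom. The median of the stroma markers over the same pools was 0.07, -1.03 and -1.39 in WT and 1.98, 1.75 and 1.65 in MUT. That of the nephron progenitor markers was -0.15, 0.46 and -0.24 in WT and 1.81, 2.53 and 1.65 in MUT. Whether either cell type has a part in these regions' values was not tested.

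On chromosome 5, 3 short F regions within 64.7 kb rose alike. The first, chr5:111538420-111540142, stood at 0.18, 0.23 and -0.32 in WT and at 2.49, 2.46 and 1.73 in MUT, a rise of 2.20 ± 0.26 (SE; adjusted p = 0.00411). The next, chr5:111565658-111566257, stood at 0.01, 0.18 and -0.44 and at 2.55, 1.89 and 1.36, a rise of 2.02 ± 0.33 (adjusted p = 0.00944). The last, chr5:111602486-111603075, stood at 0.15, 0.45 and -0.15 and at 2.71, 2.07 and 1.57, a rise of 1.96 ± 0.32 (adjusted p = 0.00924). In each of them MUT pool 1 was the highest and MUT pool 3 the lowest of its group, and WT pool 3 the lowest of all. All 9 probes were detected on every array and all 9 were called.

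The remaining rises were chr1:139822286-139822985 F and chr13:28952570-28953234 R. The former stood at 0.12, 0.17 and -0.44 in WT and 2.16, 1.81 and 1.76 in MUT, a rise of 1.96 ± 0.21 (SE), or 3.89-fold (adjusted p = 0.00318), with 3 of 3 probes called. The latter stood at -0.39, -0.37 and -0.66 in WT and 1.47, 1.77 and 1.17 in MUT, a rise of 1.94 ± 0.19 (SE), or 3.84-fold (adjusted p = 0.0027; 0.88 after normexp and loess). Of its probes 1 was detected on 1 WT array and the other on all 3. All 10 rises were called when any single pool was left out, and 1 of 10, that on chromosome 13, was called with slide row as a block, where the changes were 1.38 to 2.05.

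Among the falls chosen by the same rule, the largest was at chr8:67542714-67561694 F. Its log2 ratios were 0.06, 0.07 and 0.45 in WT and -3.96, -2.26 and -1.80 in MUT. The groups did not overlap, and MUT pool 1 lay well below its fellows. The fall was -2.87 ± 0.55 (SE), or 7.29-fold (adjusted p = 0.0153), and the 4 tested of its 10 probes were all called. They were detected in 12 of 12 readings on WT arrays and in 9 of 12 on MUT arrays. After normexp and loess the change was -1.25. Without MUT pool 1 it was -2.22, and without WT pool 3 it was -2.74 with an adjusted p of 0.0633.

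A tighter fall was that of chr16:17833211-17835112 F. It stood at -0.06, -0.58 and 0.29 in WT and at -2.67, -3.05 and -2.48 in MUT, with 3 probes detected on every array. It fell by 2.62 ± 0.26 (SE) on the log2 scale, or 6.14-fold (adjusted p = 0.00292), and by 2.68 (adjusted p = 0.0448) with slide row as a block. All 3 probes were called, at -2.78, -2.93 and -2.14.

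In chr1:160888257-160910594 R the WT pools stood at -0.10, 0.03 and 0.45 and the MUT pools at -3.58, -1.61 and -1.50. MUT pool 1 again lay far below the others. The change was -2.36 ± 0.57 (SE; adjusted p = 0.0309), and it was -1.68 without MUT pool 1. Like patterns were seen at chr3:30754871-30776438 F, at 0.04, -0.55 and 0.50 in WT and -2.89, -1.69 and -1.96 in MUT (change -2.18 ± 0.39, adjusted p = 0.0127), and at chr3:131128972-131163308 R, at 0.05, -0.33 and 0.28 in WT and -2.89, -1.69 and -1.41 in MUT (change -2.0 ± 0.41, adjusted p = 0.0182). In both of these regions MUT pool 1 was the lowest. At chr3:131128972-131163308 R 3 of the 5 probes were tested and 2 of them called. They were detected in 5 of 9 readings on MUT arrays, so the size of that fall is uncertain. At chr13:73472571-73483846 R the values were -0.20, -0.22 and 0.28 in WT and -2.82, -1.49 and -1.23 in MUT (change -1.80 ± 0.43, adjusted p = 0.0297). There 1 probe was called, at -2.24 with MUT pools between -2.42 and -2.02, and the other had an adjusted p of 0.237 with MUT pools at -3.21, -0.65 and -0.43.

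The other falls had MUT pools close together. At chr10:39666719-39679959 R the WT pools stood at 0.12, -0.81 and 0.26 and the MUT pools at -1.96, -2.42 and -2.32, a change of -2.09 ± 0.31 (SE; adjusted p = 0.00729). At chr11:93994795-94017045 F they stood at -0.02, -0.62 and 0.01 and at -2.26, -2.22 and -2.04, a change of -1.97 ± 0.20 (adjusted p = 0.00292). WT pool 2 was the lowest WT pool in both. At chrX:135882029-135892277 R they stood at 0.11, -0.31 and 0.04 and at -2.27, -2.10 and -1.67, a change of -1.96 ± 0.20 (adjusted p = 0.003). Its probes were detected in 7 of 9 readings on MUT arrays. At chr16:21247571-21296945 R the pools stood at -0.05, 0.20 and 0.27 in WT and at -1.07, -1.78 and -1.28 in MUT, a change of -1.52 ± 0.21 (adjusted p = 0.00597).

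The medians of the principal cell markers over the pools were -0.04, -0.07 and 0.01 in WT and -2.37, -2.31 and -1.87 in MUT, and those of the intercalated cell markers -0.11, -0.75 and 0.33 in WT and -2.76, -2.82 and -2.60 in MUT. Their part in the falling regions was not tested. Of the 10 falls, 7 were called without WT pool 1, 8 without WT pool 2, 6 without WT pool 3 and 8 without MUT pool 2. The calls of chr1:160888257-160910594 R and chr13:73472571-73483846 R were lost in all 4 of these fits, that of chr3:131128972-131163308 R without WT pool 1 (adjusted p = 0.0576) or WT pool 3 (adjusted p = 0.0728), and that of chr8:67542714-67561694 F without WT pool 3. In addition 3 were called with slide row as a block (chr16:17833211-17835112 F, chr11:93994795-94017045 F and chrX:135882029-135892277 R), and 5 were called with spike-in centring, under which their changes were -1.92 to -0.57.

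**Figure D3:**
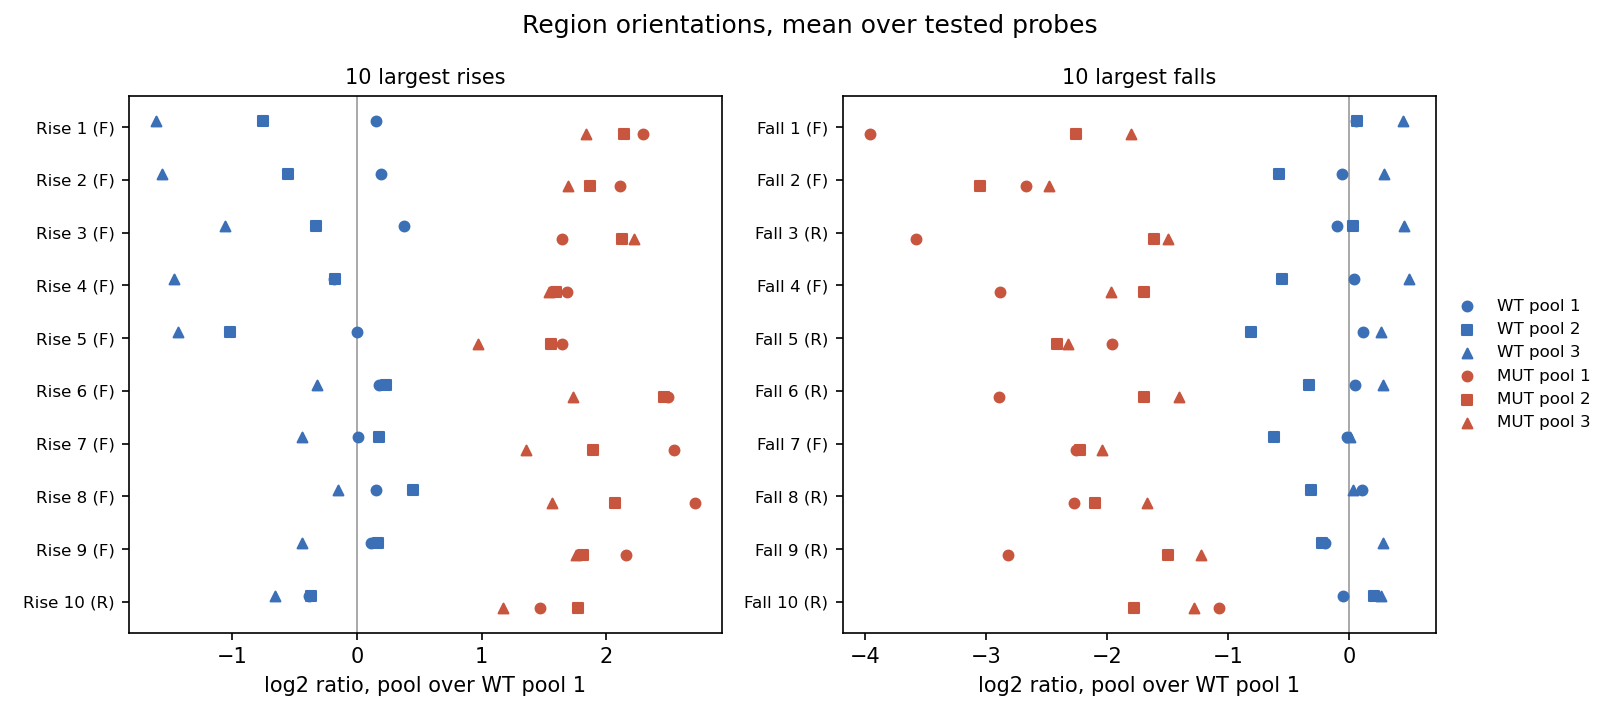
Log2 ratio of each pool over WT pool 1 (x axis) for the 10 region orientations with the largest called rise (left) and fall (right) among those with every tested probe detected in each group, from the largest change at the top, with the orientation in brackets. Each symbol is 1 pool, WT in blue and MUT in red; in every row the MUT pools lie on 1 side of all WT pools, and MUT pool 1 is far to the left in the first fall (-3.96, on chromosome 8) and the third (-3.58, on chromosome 1).

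Some changes ran through several neighbouring or overlapping regions. A search made after the values were seen, for at least 3 region orientations of 1 direction called within 50 kb of each other, found 7 runs. In the runs on chromosomes 2, 7, 8, 13 and 14 a longer region contains shorter ones. The entries of such a run are in part overlapping readings of 1 locus. The largest change was on chromosome 1 in F, where 4 short regions within 8.5 kb (chr1:23332602-23341144) changed by -3.70 to -2.81 on the log2 scale, with adjusted p values of 0.00179 to 0.00429 in limma. WT pools stood between -0.76 and 0.57 there and MUT pools between -3.94 and -2.75, so no pool came near the other group. All 7 tested probes were called. They were detected in 21 of 21 readings on WT arrays and in 6 of 21 on MUT arrays, so the size of the fall is uncertain, and after normexp and loess the 4 changes were -1.05 to -0.61.

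Of these, chr1:23339247-23339897 F had the most even values, at -0.05, -0.09 and -0.21 in WT and -2.75, -3.07 and -2.97 in MUT. It changed by -2.81 ± 0.13 (SE). At chr1:23332602-23333197 F the only tested probe was detected on every WT array and on no MUT array. Its pools stood at 0.09, -0.76 and 0.25 in WT and -3.94, -3.13 and -2.81 in MUT. A fold is not given, since this probe passed the detection rule through WT alone. After normexp and loess its log2 change was -0.66 (adjusted p = 0.00551).

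On chromosome 13 in R, 4 of the 7 tested region orientations between 28700385 and 28977218 bp were called and rose by 1.88 to 2.0. The longest of the 4, chr13:28760289-28977218 R, overlaps each of the others. WT pools were between -0.86 and 0.62 and MUT pools between 1.17 and 2.54. Of the 10 tested probes 9 were called. The probes were detected in 16 of 30 readings on WT arrays and 30 of 30 on MUT arrays, so the size of the rise is uncertain. After normexp and loess the 4 changes were 0.41 to 1.38. This run holds the named region chr13:28952570-28953234 R. On chromosome 8 in R, 3 of 5 tested region orientations within 61.8 kb (chr8:49853937-49915704) rose by 1.82 to 2.01, with WT pools between -0.41 and 0.49 and MUT pools between 1.58 and 2.35. They were detected in 7 of 24 WT readings and in all 24 MUT readings, and after normexp and loess the changes were 0.38 to 0.93. Each of the 3 had a probe detected on no WT array, which passed the detection rule through MUT alone, so the size of the rise is uncertain.

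The other runs were smaller or were named above. On chromosome 14, 3 overlapping F regions within chr14:26834450-26847000 changed by -1.45 to -0.87, and all 8 probes were detected on every array and called. On chromosome 2, 3 of 4 tested R regions within chr2:75444518-75497268 were called and changed by -2.82 to -0.52, with 5 of 7 probes called. On chromosome 7, 3 of 4 tested R regions within chr7:69075022-69127242 were called and rose by 1.07 to 1.49, with 3 of 8 probes called. In both of these runs the longest region contains the other called ones. On chromosome 7 the probes were detected in 6 of 24 WT readings, and 1 of the 3 regions was called after normexp and loess, as against 2 of the 3 on chromosome 2. The probes on chromosome 2 were detected in 13 of 21 MUT readings, so the sizes of both changes are uncertain. The run on chromosome 5 is the one described above. In none of the 7 runs was the opposite orientation called, but it was tested in the runs on chromosomes 14 and 7 only, in 1 region each.

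Over the whole array, neighbouring regions of the same orientation had related changes. For pairs of overlapping region orientations Pearson's r of the log2 change was 0.504 over 569 pairs in the same orientation and 0.282 over 421 pairs in opposite orientations. With a gap of up to 10 kb it was 0.671 over 164 pairs and 0.348 over 84 pairs. With a gap of 50 to 100 kb it was 0.305 over 176 pairs and -0.022 over 157 pairs. These are descriptions across regions that share arrays, and overlapping regions can share probed sequence. Merging overlapping regions of 1 orientation left 1821 loci, of which 320 (17.6%) held a call and 2 held calls in opposite directions. A locus counted when any of its orientations was called, so this share cannot be set beside that of single orientations or of all features.

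**Figure D4:**
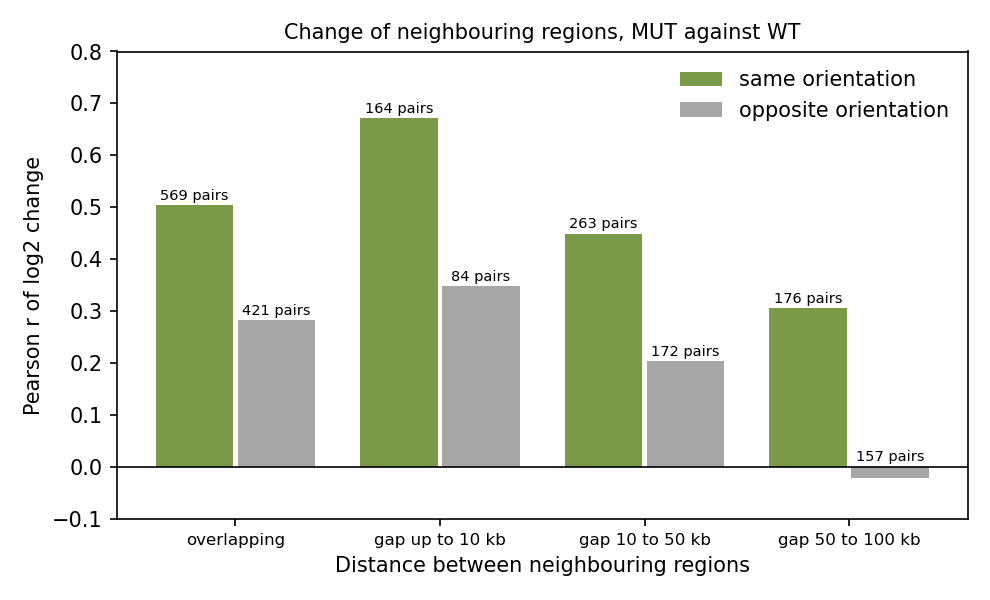
Pearson's r of the log2 change in MUT against WT (y axis) between neighbouring region orientations, by distance (x axis), for pairs in the same orientation in green and in opposite orientations in grey, with the number of pairs above each bar. The green bar is the higher at each distance, 0.671 against 0.348 at a gap of up to 10 kb.

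The F and R changes of 1 region were only loosely related. Both orientations were tested in 363 of the 1067 regions probed in both. Pearson's r of the 2 changes was 0.189 and Spearman's rho 0.181 over these regions, which share arrays and include dim probes. F and R were both called in 13 regions, both higher in 2, both lower in 7 and opposite in 4. F alone was called in 30, R alone in 39 and neither in 281. A call in 1 orientation alone does not show that the orientations differ, so the difference was tested.

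The difference between F and R changes was called in 8 of the 363 regions (2.20%) by limma on the difference per array, with the change of R above that of F in 7. At an unadjusted p under 0.05 there were 67. The 8 adjusted p values lay between 0.0458 and 0.0464, just under the threshold. In 5 of the 8 an orientation had a probe detected on no array of a group, so these differences rest in part on signals below the detection limit. Among the 239 regions with both orientations detected on all 6 arrays 8 were called too (42 at an unadjusted p under 0.05), of which 3 were among the first 8. With slide row as a block or with a variance trend 0 were called (40 and 64 at an unadjusted p under 0.05), 0 were called without WT pool 1, WT pool 3 or any MUT pool (48 to 78 at an unadjusted p under 0.05), and 25 were called after normexp and loess.

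The widest such difference was at chr14:44284425-44300475. Its F probe stood at -0.02, -0.14 and 0.40 in WT and -2.71, -1.57 and -1.33 in MUT, and its R probes at -0.73, 0.32 and -0.59 in WT and 1.10, 0.60 and 1.06 in MUT. The pools did not overlap in either. F minus R was -3.21 ± 0.55 (SE; adjusted p = 0.0464) and -2.20 after normexp and loess. The R probes passed the detection rule through MUT alone and none of the 3 was called by itself, so no direction is drawn for R. As a region R changed by 1.25 (adjusted p = 0.0335), which was 0.18 (adjusted p = 0.179) after normexp and loess, and its call was lost in 9 of 15 alternative settings.

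At chr1:71730016-71740391 the single F probe stood at 0.26, 0.15 and 0.42 in WT and -0.76, -0.56 and -0.50 in MUT. The single R probe stood at -1.57, -0.08 and -0.31 in WT and 0.81, 0.75 and 0.97 in MUT. The value of -1.57 is from the array of WT pool 1 against itself, and R was detected on 1 WT array and all 3 MUT arrays. F minus R was -2.38 ± 0.42 (SE; adjusted p = 0.0464), and with spike-in centring the F change was 0.06 instead of -0.89. After normexp and loess the R change was 0.18 (adjusted p = 0.264) instead of 1.5 and F minus R was -0.60, and the R call was lost in 8 of 15 alternative settings.

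At chr11:97457180-97487074 F fell, from 0.07, -0.49 and 0.12 in WT to -1.62, -1.88 and -2.13 in MUT, and R stood at -0.13, 0.15 and 0.19 in WT and 0.95, 0.28 and 0.62 in MUT. The 2 tested F probes were detected in 6 of 6 WT readings and 3 of 6 MUT readings. Of these, 1 was detected on 0 MUT arrays, so the size of the F fall is uncertain. R alone had an adjusted p of 0.0947, and F minus R was -2.33 ± 0.32 (SE; adjusted p = 0.0458; -1.21 after normexp and loess). At chr11:69106907-69112857 F was level, at -0.19, -0.20 and -0.12 in WT and -0.04, -0.38 and -0.03 in MUT. R there stood at -1.15, 0.04 and -1.01 in WT and 1.36, 1.12 and 2.35 in MUT. R passed the detection rule through MUT alone, and its change was 0.36 after normexp and loess in place of 2.31. F minus R was -2.30 ± 0.43 (SE; adjusted p = 0.0464), and -0.33 (adjusted p = 0.0991) after normexp and loess.

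The only named region in which R fell below F was chr11:87872568-87880978. F stood at -0.18, 0.34 and 0.36 in WT and -0.20, -0.78 and -0.42 in MUT, and R at -0.02, 0.33 and 0.50 in WT and -2.20, -2.06 and -1.82 in MUT. R fell by 2.30 ± 0.18 (SE; adjusted p = 0.00253) with 3 of 3 probes called, while F had a change of -0.64 (adjusted p = 0.0829). The R probes were detected in 9 of 9 readings on WT arrays and in 5 of 9 on MUT arrays. The R probe with the largest fall, -3.24, was detected on 0 MUT arrays, so the size of the R fall is uncertain. F minus R was 1.66 ± 0.28 (SE; adjusted p = 0.0464), 0.54 after normexp and loess, and 0.82 (adjusted p = 0.331) over probes detected on all 6 arrays. F had 1 probe called at -1.19 and 1 with a change of -0.09.

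**Figure D5:**
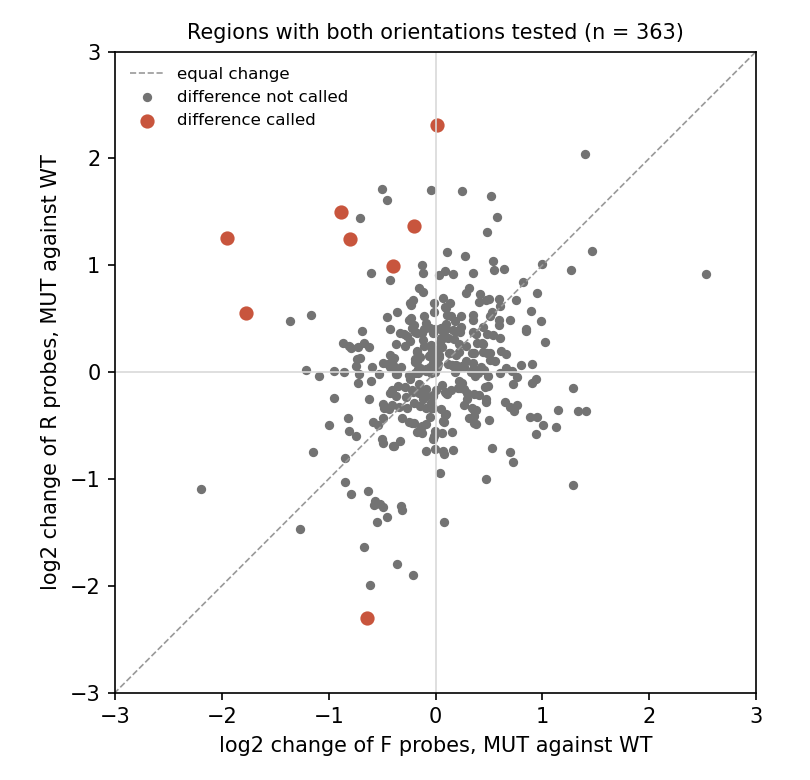
Log2 change in MUT against WT of the F probes (x axis) and the R probes (y axis) of the 363 regions with both orientations tested, with the 8 regions whose difference was called in red and the line of equal change dashed. Of the red points 7 lie above the line and 1 below it, and over all points r is 0.189.

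Among regions where F and R were called together, both fell at chr10:81680941-81704964, which was chosen after its values were seen. F stood at -0.11, -0.35 and 0.00 in WT and -1.51, -1.37 and -1.39 in MUT, and R at -0.20, -0.27 and -0.14 in WT and -2.03, -1.53 and -1.48 in MUT. All pools of MUT lay below all pools of WT in either orientation. F changed by -1.27 ± 0.13 and R by -1.47 ± 0.17 (SE), with adjusted p of 0.00298 and 0.00391, and F minus R was 0.21 ± 0.25 (adjusted p = 0.709).

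The brightest region orientations moved little. At chr11:22681800-22707775 R the WT pools stood at -0.11, 0.05 and -0.03 and the MUT pools at 0.15, -0.11 and -0.06, a change of 0.03 ± 0.12 (SE; adjusted p = 0.893). At chr7:108209996-108216032 R they stood at -0.06, 0.02 and -0.01 and at -0.49, -0.03 and -0.19, a change of -0.22 ± 0.15 (adjusted p = 0.31). The groups overlapped in both. At chr12:119825125-119850750 F the change was 0.08 ± 0.10 (adjusted p = 0.593) and at chr17:17481706-17482457 R it was -0.09 ± 0.13 (adjusted p = 0.613). With spike-in centring the changes at these 4 regions were 0.97, 0.73, 1.03 and 0.85, close to the shift of all probes.

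The other of the 5 brightest, chr19:5801802-5802597 R, was set apart by MUT pool 1. Its pools stood at 0.09, -0.12 and 0.20 in WT and -3.30, -0.59 and -0.83 in MUT, where the value of MUT pool 1 rests on 2 of the 3 probes, since the spot of the third was marked as an outlier. All MUT pools lay below all WT pools, but the change of -1.63 ± 0.71 (SE) had an adjusted p of 0.145. Without MUT pool 1 the change was -0.77 with an adjusted p of 0.0205.

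Region orientations detected in a single group were near the detection limit. Besides the region on chromosome 1 above, chr15:5969454-5994540 R was detected on all WT and no MUT arrays through 1 of its 9 probes. It stood at -0.53, -0.44 and 0.38 in WT and -2.61, -2.34 and -1.25 in MUT, a change of -1.87 ± 0.42 (SE; adjusted p = 0.0245) that was -0.61 after normexp and loess. No fold is given, since the probe passed the detection rule through WT alone. At chr3:125556184-125556476 R the values were 0.67, 0.32 and 0.13 in WT and -1.44, -0.64 and -0.71 in MUT, a change of -1.30 (adjusted p = 0.0172) that was -0.16 (adjusted p = 0.295) after normexp and loess. The former call was lost without WT pool 1, WT pool 2, WT pool 3 or MUT pool 2 (adjusted p = 0.0508 to 0.0811) and the latter without WT pool 1 (adjusted p = 0.0549). The 3 brightest detected on all MUT and no WT arrays were not called. These were chr4:145450600-145461600 R with a change of 0.60 (adjusted p = 0.213), chr7:69081844-69083628 R with 1.02 (adjusted p = 0.0604) and chr14:78934381-78934808 F with 0.27 (adjusted p = 0.637).

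Of the 13 probes without a letter, the 5 of chr17:12941161-12944859 were detected on all arrays and the other 8 on none. The region stood at -0.02, 0.00 and -0.31 in WT and -0.30, 0.84 and 0.63 in MUT. MUT pool 1 lay among the WT pools, and the change of 0.50 ± 0.31 (SE) had an adjusted p of 0.278.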

How the data were processed

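Signals were measured on 6 Agilent 2-colour arrays, 3 WT and 3 MUT pools in Cy5, each against WT pool 1 in Cy3, with 0.5 µg of total RNA per labelling reaction. The deposited scanner files hold spot intensity. The submitters' processing notes name Agilent Feature Extraction 10.7.3.1. Per the file headers the processed intensity is background-subtracted and dye-normalized, and the probe layout is that of build mm9. The authors' deposited value table holds a log10 ratio that differs from the scanner's by at most 0.00499, and it was used as an alternative.

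The log2 ratio of processed Cy5 over Cy3 was computed. Control spots and spots marked as outliers were left out, at most 33 region probes on an array lost their spots, no spot was saturated, and spots of a probe were averaged. To be tested, a probe had to be detected (Cy5 flag) on the 3 arrays of either group, which 28990 probes (52.1%) were. Processed signals of dim spots hold a positive surrogate, so a ratio there need not follow the true one. MUT was compared with WT by lmFit and eBayes of limma 3.58.1 in R 4.3.3, with data.table (version 1.17.8), p-values adjusted by Benjamini-Hochberg across the whole tested set and a threshold of 0.05. Values with ± SE come from these fits, with 3 pools per group, and p-values measure the spread between pools. The scripts were checked on simulated data. Figures used Python 3.11.15 with matplotlib 3.10.9.

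Named regions followed a rule. It took the 10 largest called rises and falls with non-overlapping pools, at least 2 tested probes and every tested probe detected on at least 1 array of each group, the 5 brightest region orientations, the 5 largest called differences between F and R, and the 3 brightest detected in 1 group only, in each direction. The members, lists and rules were chosen with earlier results of these data known. Nearest genes were to be compared too, but the scanner files give gene probes no position, so this was not run. Gene names of the markers came from RefSeq accessions matched to GRCm38.p6, for 27509 probes. The number of arrays limits precision, and the alternatives tried were other background corrections, centrings, channels, filters, blocks, variance models and each pool left out.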

Additional observations from a re-analysis of the deposited data

How the results depend on the processing

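The share of region probes detected was higher in MUT by 8.07 points, by 9.15 points with the more lenient flag for a positive and significant signal, and by 7.41 to 8.96 points with a pool left out. The 732 region probes called became 393 with no filter on dim probes, 2102 with spike-in centring, 49 with slide row as a block and 263 to 907 with a pool left out. The 361 region orientations called became 174, 1041, 40 and 141 to 440 under the same settings. The 8 regions whose F and R changes differ became 1 without the filter, 25 after normexp and loess, 0 with slide row as a block, 0 with eBayes trend and robust settings, and 0 to 6 with a pool left out. The median change of region probes, 0.04, was -0.19 without the filter, 0.98 with spike-in centring, -0.019 for probes well above background on all 6 arrays, -0.021 for both channels and 0.085 with slide row as a block. Of called region probes 54.2% were higher, and this became 97.7% with spike-in centring, 48.4% without the filter, 48.8% for both channels and 49.1% to 56.1% with a pool left out. Of all called probes 96.9% were higher with spike-in centring. The shares of region probes and of all probes called were 2.43% and 6.37% without the filter, and 44.2% and 41.2% with spike-in centring. With slide row as a block they were 1.03% and 1.99%.

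Correlations between WT and MUT pools of the same number were 0.123, 0.019 and 0.108, and those between pools of unlike number ran from -0.146 to 0.043. All were weak, so pool numbers were not taken to pair the samples. With pool number as a replicate block 563 region probes were called, 49.4% of them higher, and limma called 0 differences between F and R (68 at an unadjusted p under 0.05). WT pool 1 and WT pool 3 each correlated best with the MUT pool of the same number, and WT pool 2 did not.

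Of 732 called region probes 529 were also called after normexp and loess, 528 with Cy5 alone and 731 with the deposited table, all in the same direction. Reversals were seen among region orientations that were not called or had a small change. Without dye normalization chr17:17481706-17482457 R was at 0.090 and chr11:69106907-69112857 F at -0.0032. With spike-in centring chr7:108209996-108216032 R was at 0.73, chr17:17481706-17482457 R at 0.85, chr1:71730016-71740391 F at 0.062 and chr11:87872568-87880978 F at 0.31. With Cy5 alone chr7:108209996-108216032 R was at 0.039 and chr17:17481706-17482457 R at 0.13. Without the filter chr11:69106907-69112857 F was at -0.22 and chr11:97457180-97487074 R at -0.37. With slide row as a block chr14:78934381-78934808 F was at -0.31. With a pool left out chr11:22681800-22707775 R ranged from -0.053 to 0.076 and chr11:69106907-69112857 F from -0.046 to 0.13. The causes were not tested. Dim signal limits what can be seen, since 61.2% of tested region probes had a mean Cy5 signal under 100 units, against 25% of other probes. Merging overlapping regions was chosen after seeing the data. Comparisons with genes at 10, 50 and 100 kb were not run.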
